A study of Mus musculus with 20 samples.

Results

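The amygdala of F2 mice was compared with that of F1 mice within the no-stress lineage, the control arm of a study on the descendants of stressed mice. The comparison used 10 of the 20 libraries: replicates 16 to 20 of the F2 no-stress group and replicates 6 to 10 of the F1 no-stress group, chosen by the generation and treatment given in the sample labels. Each library was made from bilateral punches, 1.2 mm wide, of 1 mouse. All mice of both groups were behaviourally naive males at postnatal day 84, of a C57B6 strain obtained from Taconic and bred in house, and none descended from mice that had gone through chronic unpredictable stress. The other 10 libraries, 5 F1 and 5 F2 mice of the stress lineage, have the same strain, sex and age. They enter here as the comparison lineage and in the same fit, where all 20 libraries share the estimate of the spread. The labels name no litter, cage, collection day or sequencing run, so the generation of the mice cannot be told apart from the time at which they were bred, collected and sequenced.

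The amygdala is a group of nuclei in the temporal forebrain that links sensory input to fear and other emotional responses. Its neurons switch on a set of immediate early genes within minutes of strong synaptic input, and several of the encoded transcription factors then act on synaptic genes. The adult amygdala also holds oligodendrocyte precursors, which keep dividing in adulthood and pass through a short committed stage before they make myelin. A comparison of generations within the unstressed line gives the difference between cohorts without the exposure under study.

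The libraries held between 13661476 and 13714805 counts in the 10 mice, a nearly common total that reflects a step before deposit and not the sequencing depth. Of the 29671 genes in the table, 16727 passed the filter on low counts and were tested. Values are given as CPM, a gene's share of the library's counts after TMM scaling, and differences as F2 minus F1 on the log2 scale with their standard error (SE). The central amygdala list of 18 neuronal markers was measured in full, with a summed level of 772 to 1249 CPM in F1 and 859 to 1078 CPM in F2. Markers of striatal medium spiny neurons, the cells of the adjoining striatum, ranged more widely, from 3071 to 11265 CPM in F1 and from 3305 to 11276 CPM in F2. F2 replicate 20 stood apart in having the lowest sum of pallial excitatory neuron markers (1877 CPM, against 2567 to 4985 CPM in the other 9) and the most genes with at least 1 count (22701, against 21629 to 22367).

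In edgeR with all 20 libraries in 1 fit, 246 genes rose and 89 fell in the F2 mice at an adjusted p below 0.05. Together these were 335 genes or 2.0% of those tested (1.47% higher and 0.532% lower). No gene was called when only the 10 no-stress libraries were fitted (edgeR, smallest adjusted p = 0.0797, 3105 genes at an unadjusted p below 0.05), or with an offset that takes out the dependence of each library on GC content and transcript length (edgeR, smallest adjusted p = 0.0540). Most differences were small. The median absolute log2 difference of the 335 genes was 0.50, and the 25 genes that differed at least 2-fold were all higher in F2. Over all genes tested, 52.5% had a positive difference and the median was 0.02. The 5 F2 values and the 5 F1 values did not overlap in 756 genes (4.52%). With DESeq2 in place of edgeR, 590 genes were higher and 438 lower, a share of higher genes below that of edgeR.

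The call count changed with single libraries. Leaving out 1 mouse at a time gave 0 to 725 calls in edgeR: 0 without F1 replicate 8, F1 replicate 10 or F2 replicate 17, 4 without F1 replicate 7, 6 without F2 replicate 16, 195 without F2 replicate 19, 209 without F1 replicate 9, 279 without F2 replicate 20, 573 without F2 replicate 18 and 725 without F1 replicate 6. The 3 fits with 0 calls had 2537, 2694 and 2755 genes at an unadjusted p below 0.05, and 3386 genes had such a p with all mice. No gene was called in each of the 10 fits. The genes called most often were Gpr17, Npas4 and Rfng, each in 7 of 10.

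**Figure D1:**
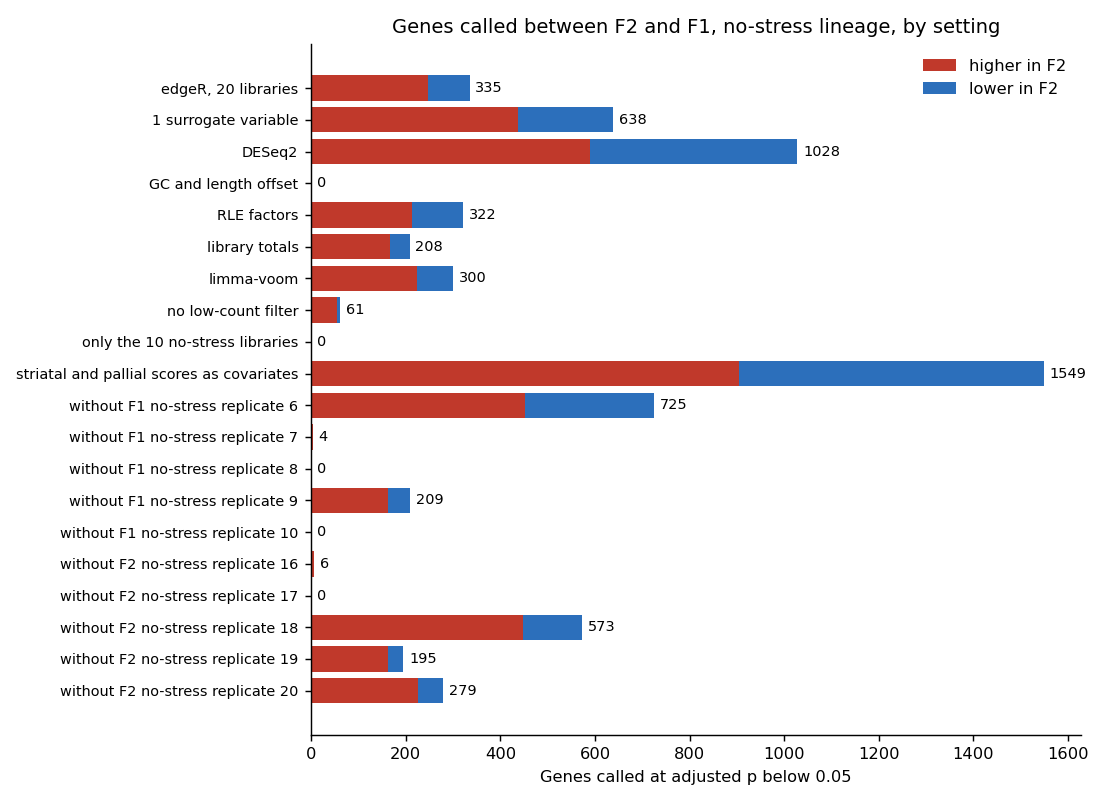
Number of genes called higher (red) or lower (blue) in F2 than in F1 of the no-stress lineage at an adjusted p below 0.05, for edgeR with all 20 libraries and for each alternative. The count was 335 with all libraries and ranged from 0 to 1549 over the alternatives. The striatal and pallial scores used as covariates were centred within each group and do not adjust the difference between groups.

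Immediate early genes contained 3 of the genes that rose: Npas4, Ier2 and Junb, out of 25 tested (12%, against 1.47% of all genes). Npas4 is a neuronal transcription factor induced by calcium entry, Ier2 a nuclear protein of the early growth response, and Junb a subunit of the AP-1 transcription factor. None of the 25 fell, 22 had a positive difference, and their median was 0.40 against 0.02 for all genes. The list had a median GC content of 55.5%, and of the 1667 genes at 55.3% to 57.7% GC, 78 rose. Promoters of immediate early genes commonly carry sites for CREB, a factor that responds to calcium and cyclic AMP. The upstream windows of Npas4 and Junb are therefore shown. The set of RefSeq promoter windows used here held none for Ier2. The windows are the 250 bases before the RefSeq transcription start on the coding strand of GRCm38.p6. That start of Npas4 lies inside the first exon of a longer transcript in GENCODE, whose untranslated region spans the window, so only the 30 bases around its matches are printed. Capitals mark TGACG or its reverse complement CGTCA, the half-site that CREB binds.
Npas4 (chr19:4990129-4990158, minus strand): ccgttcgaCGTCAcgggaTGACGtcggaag
Junb (chr8:84978749-84978998, minus strand): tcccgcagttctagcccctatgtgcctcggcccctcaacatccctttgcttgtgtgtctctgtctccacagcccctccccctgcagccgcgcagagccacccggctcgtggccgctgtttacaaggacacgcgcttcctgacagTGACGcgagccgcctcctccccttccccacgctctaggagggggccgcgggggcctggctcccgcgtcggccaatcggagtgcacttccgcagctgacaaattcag

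The Npas4 window held 2 matches on opposite strands, and the Junb window 1. Of the 25 immediate early genes, 19 had a window and 15 of these held TGACG on either strand (78.9%), against 5347 of 27025 genes with a window (19.8%). Among the genes that rose, 66 of 198 with a window held it (33.3%), and among those that fell, 21 of 60 (35.0%). No other motif was searched, and the share was counted without a test. The 27025 genes were not limited to those tested for expression here. The share among tested genes was not counted, so no excess of the motif can be read from these values.

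Npas4, at chr19:4984355-4990316 on the minus strand, measured 3.36, 9.77, 9.05, 8.72 and 4.43 CPM in F1 replicates 6 to 10 and 15.4, 26.8, 24.1, 16.8 and 23.6 CPM in F2 replicates 16 to 20. All F2 mice were above all F1 mice, and F1 replicates 6 and 10 were the lowest. The log2 difference was 1.59 ± 0.26 (SE, adjusted p = 0.0212), from a mean of 7.07 ± 2.94 to 21.3 ± 4.97 CPM (SD, n = 5 mice a group). Ier2 was near the lower limit of the table, with 0.671 to 1.07 CPM in F1 and 1.23, 1.70, 2.16, 2.80 and 3.48 CPM in the F2 mice. Its groups did not overlap, and its log2 difference was 1.42 ± 0.26 (SE, adjusted p = 0.0212). Junb measured 5.20 to 9.09 CPM in F1 and 8.08, 14.6, 15, 18.1 and 22.1 CPM in F2. The lowest F2 value, in replicate 20, lay within the F1 range, so the groups overlapped in that mouse. The log2 difference of Junb was 1.13 ± 0.22 (SE, adjusted p = 0.0235). Prdx2, on the opposite strand where the 2 genes overlap, had a difference of -0.04 ± 0.09 (SE), and whether counting used strand is not stated in the labels.

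The other immediate early genes did not pass the test. Fos, the best known AP-1 subunit, had means of 9.94 and 18.7 CPM and a difference of 0.91 ± 0.33 (SE, adjusted p = 0.128). Arc, which acts at synapses in receptor trafficking, had a difference of 0.75 ± 0.25 (adjusted p = 0.109), and Egr4, a zinc finger factor of the same response, 0.61 ± 0.20 (adjusted p = 0.1005). At the other end, the nuclear receptor Nr4a2 had a difference of -1.14 ± 0.76 (adjusted p = 0.422), with wide spread between mice. The summed level of the list was 627 to 979 CPM in F1 and 794 to 1055 CPM in F2, so the group sums overlapped. The list's median was 0.17 when the dependence of each library on base composition and transcript length was removed, and 0.17 in the stress lineage.

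**Figure D2:**
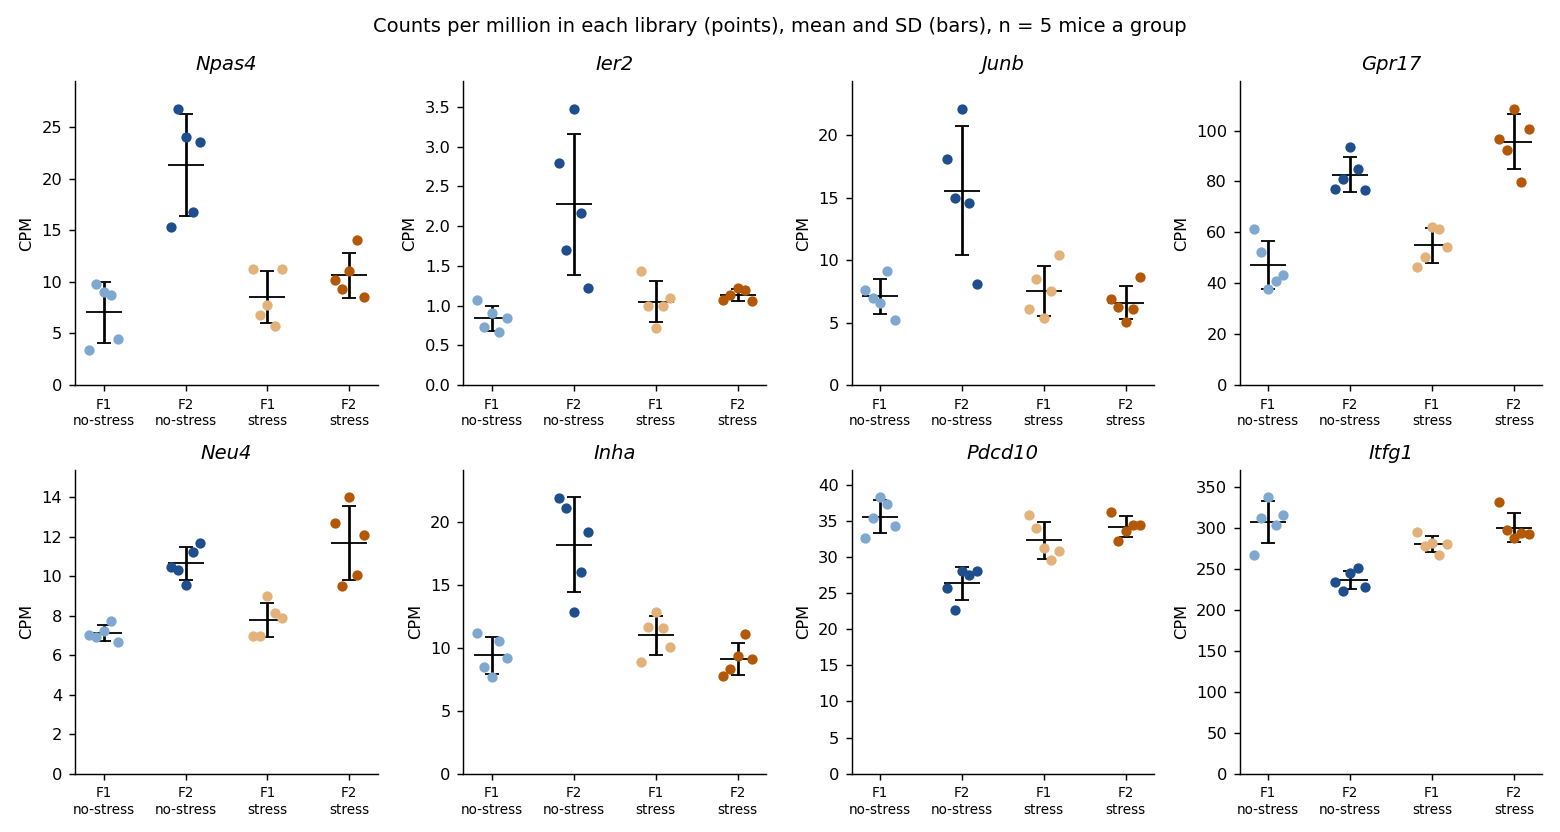
CPM of 8 genes in each mouse (points) of the 4 groups, with group mean and SD (bars), n = 5 mice a group. Npas4, Ier2, Junb and Inha were higher in F2 no-stress mice than in F1 no-stress mice, Gpr17 and Neu4 were higher in F2 in both lineages on average, and Pdcd10 and Itfg1 were lower in F2 of the no-stress lineage.

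Oligodendrocyte precursor genes rose in 2 of 16 cases, Gpr17 and Neu4, against 1.47% of all genes, and none fell. Gpr17 is a G protein-coupled receptor of committed precursors that holds back their maturation, and Neu4 is a sialidase expressed in the oligodendrocyte lineage. In bulk punches a change in the number of such cells and a change in RNA per cell cannot be told apart. Gpr17 measured 61.2, 52.3, 37.8, 41.1 and 43.3 CPM in F1 and 77.2, 80.9, 93.4, 84.9 and 76.7 CPM in F2. All F2 values exceeded all F1 values. Its log2 difference was 0.81 ± 0.12 (SE, adjusted p = 0.0101). Lims2, which overlaps Gpr17 on the opposite strand, had 0.56 ± 0.22 (SE, adjusted p = 0.159), so reads of the pair may have been shared if strand was not used. Neu4 measured 6.65 to 7.75 CPM in F1 and 9.57 to 11.7 CPM in F2, without overlap, and differed by 0.58 ± 0.11 (SE, adjusted p = 0.0233).

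These 2 genes had nearly the same size of difference in the stress lineage. The Gpr17 difference there was 0.80 (adjusted p = 0.0225), and the difference between lineages was 0.01 ± 0.17 (SE, adjusted p = 0.983). The Neu4 difference was 0.58 in both lineages (adjusted p of 0.124 in the stress lineage), with a difference between lineages of -0.00 ± 0.16 (SE). Gpr17 was the only gene called in both lineages, and 2 genes were called in the stress lineage in all (0.0120%). With the trend with GC content and length removed, the Gpr17 difference was 0.69 (adjusted p = 0.0540) and that of Neu4 0.56 (adjusted p = 0.0820).

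The remaining precursor genes did not pass the test. Of the 16, 14 were positive, with a median of 0.37. The median was 0.18 with the offset for GC content and length (14 positive) and 0.19 in the stress lineage (13 positive). Pdgfra, the receptor that marks most precursors, had means of 84.1 and 83.7 CPM and a difference of -0.01 ± 0.11 (SE). Cspg4, which codes for the NG2 proteoglycan, had a difference of 0.65 ± 0.19 (adjusted p = 0.0725). For Cspg4 it was 0.33 with the offset and -0.31 in the stress lineage. Bmp4, a secreted signal that is also made in committed precursors, had means of 0.812 and 1.58 CPM and a difference of 0.95 ± 0.35 (adjusted p = 0.135). Of 20 genes of myelin and mature oligodendrocytes, 0 were called, 16 were positive and the median was 0.19, with Mbp, a major myelin protein, at 0.26 ± 0.24 (SE, adjusted p = 0.583). The summed precursor level was 655 to 876 CPM in F1 and 770 to 940 CPM in F2.

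Among the other genes that rose, Rfng had the smallest p. Rfng codes for a glycosyltransferase of the fringe family that modifies Notch receptors. It measured 47.8 to 52.8 CPM in F1 and 64.6 to 74.7 CPM in F2, without overlap, and differed by 0.44 ± 0.06 (SE, adjusted p = 0.0101), but by 0.15 (adjusted p = 0.368) with the offset for GC content and length. Inha, at chr1:75507077-75510366 on the plus strand, codes for the alpha subunit of inhibin, which antagonises activin. It measured 11.2, 8.46, 7.70, 10.6 and 9.17 CPM in F1 and 21.9, 21.1, 12.8, 16 and 19.2 CPM in F2. The groups did not overlap, and the difference was 0.95 ± 0.15 (SE, adjusted p = 0.0146). Obsl1, a cytoskeletal adaptor of the obscurin family at chr1:75479310-75506452 on the minus strand, lies 624 bases from Inha. It also rose, by 0.64 ± 0.11 (SE, adjusted p = 0.0212), from 6.49 to 9.15 CPM in F1 and 12.2 to 12.4 CPM in F2. With the offset the difference was 0.69 for Inha (adjusted p = 0.136) and 0.27 for Obsl1 (adjusted p = 0.319).

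Zfr2, which codes for a zinc finger RNA-binding protein, rose by 0.77, and Pagr1a, a partner of histone methyltransferase complexes, by 0.71. Sox12, a SoxC transcription factor, rose by 0.52, Gtpbp2, a GTP-binding protein of ribosome rescue, by 0.55, Fbxl19, an F-box protein that binds CpG islands, by 0.46, and Ripor1, a RhoA-binding protein, by 0.42. All 6 had adjusted p = 0.0212 and none overlapped between groups, against 4.52% of all genes tested without overlap. The choice of these genes by small p favours values without overlap. With the offset all 6 lost the call, at 0.45 for Zfr2, 0.47 for Pagr1a, 0.35 for Gtpbp2, 0.20 for Sox12, 0.17 for Ripor1 and 0.12 for Fbxl19 (adjusted p from 0.155 to 0.537). Pagr1a shares sequence and position with Gm42742 and Pagr1b on the same strand (differences of 0.21 and 0.50, not called), and how the counting divided their reads is not stated in the labels.

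The 12 named genes that fell did so by 0.26 to 0.45 on the log2 scale. Pdcd10, at chr3:75516490-75556856, codes for the cerebral cavernous malformation protein CCM3, which binds kinases of the germinal centre family. It measured 32.7 to 38.3 CPM in F1 and 22.7 to 28.1 CPM in F2, without overlap, and its difference was -0.43 ± 0.08 (SE, adjusted p = 0.0212). Itfg1, a transmembrane protein with integrin-like repeats, differed by -0.38 ± 0.07, Nr2c2, an orphan nuclear receptor, by -0.36 ± 0.07, and Lmbrd2 by -0.45 ± 0.08 (SE, each with adjusted p = 0.0212). Emc7, a subunit of the complex that inserts proteins into the endoplasmic reticulum membrane, differed by -0.33 ± 0.06 (SE, adjusted p = 0.0222). Hif1a, the oxygen-regulated transcription factor, differed by -0.34 ± 0.07 (SE, adjusted p = 0.0273), with groups of 80.9 to 99.9 CPM and 66.9 to 82.0 CPM that overlapped.

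Tomm20, the receptor that admits proteins to mitochondria, had 447 to 590 CPM in F1 and 400 to 449 CPM in F2, a difference of -0.36 ± 0.08 (SE, adjusted p = 0.0306). Timm29, of the inner membrane TIM22 import complex, differed by -0.29 ± 0.06, Ndfip1, an adaptor for Nedd4 ubiquitin ligases, by -0.40 ± 0.09, and Gspt1, a translation termination factor, by -0.33 ± 0.07. Lrrc40 differed by -0.35 ± 0.08, and Smcr8, which works with C9orf72 in autophagy, by -0.26 ± 0.05. These 5 each had adjusted p = 0.0306. B230334C09Rik, on the opposite strand where it overlaps Lrrc40, had a difference of 0.11 ± 0.20 (SE). In 10 of the 12 genes that fell the F1 and F2 values did not overlap, Hif1a and Tomm20 being the exceptions. Over all genes tested the share without overlap was 4.52%. The 12 were chosen by small p, which favours such values, so the count is no separate evidence. With the offset none of the 12 was called, and their differences were -0.25 to -0.42.

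Chromatin genes moved up in 4 of 59 cases and down in none (6.78%, against 2.0% of all genes). Hdac10 and Hdac5, deacetylases of class II, rose by 0.66 ± 0.15 and 0.48 ± 0.12 (SE, adjusted p of 0.0353 and 0.0435), and Kdm6b, a demethylase of histone H3 lysine 27, by 0.51 ± 0.13 (adjusted p = 0.0476). Dot1l, the methyltransferase of histone H3 lysine 79, rose by 0.79 ± 0.20 (adjusted p = 0.0488) and was named after its values were seen. With the offset none of the 4 was called, at 0.45 for Hdac10, 0.16 for Hdac5, 0.19 for Kdm6b and 0.52 for Dot1l. The list had a median of 0.10 and 39 of 59 positive differences. Among 364 genes with names beginning Zfp, which mostly code for zinc finger transcription factors, Zfp579 (0.76), Zfp335 (0.49), Zfp653 (0.47) and, named after its values were seen, Zfp865 (0.43) rose, and 0 fell, a share of 1.1% called. With the offset these were 0.39, 0.18, 0.29 and 0.17, and none was called. The share is near that of all genes that rose (1.47%). That list's median was -0.05, and 205 of the 364 differences were negative. Pcif1, on the opposite strand where it overlaps Zfp335, had a difference of 0.07 ± 0.10 (SE). Of 20 replication-dependent histone genes, whose mRNAs mostly lack a poly-A tail, 0 were called, yet 19 were positive with a median of 0.55 and 65.5 to 91.8 summed CPM in F1 against 78.8 to 120.4 CPM in F2. The 45 imprinted genes held 0 calls and a median of -0.03, with F2 replicate 20 highest at 14950 summed CPM.

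Genes of respiration and protein turnover had mostly negative differences, few of which passed the test, where 0.532% of all genes fell. Of 76 nuclear genes of oxidative phosphorylation, Uqcrc2, a core subunit of complex III, fell by 0.29 and Ndufs1, the largest subunit of complex I, fell by 0.26 on the log2 scale (adjusted p of 0.0456 and 0.0462), a share of 2.63% called, 0 rose, and 53 of 76 were negative with a median of -0.11. In the stress lineage the same list had a median of 0.15 and 66 positive differences. Of 35 proteasome genes, Psma2, a subunit of the core particle, fell by 0.35 on the log2 scale (adjusted p = 0.0441), 1 gene or 2.86% of the list, 27 were negative and the median was -0.12. Of 38 heat shock and unfolded protein genes, Hsf1, the master regulator of the heat shock response, rose by 0.51, while Hspa9, the mitochondrial Hsp70, fell by 0.26 on the log2 scale (both adjusted p = 0.0462). Of 57 splicing proteins, Snrpd3, a core snRNP protein, fell by 0.30 on the log2 scale (adjusted p = 0.0467), 1 gene or 1.75% of the list, and the list median was 0.07. The 15 mitochondrially encoded genes held 0 calls, with 13 negative and a median of -0.12, which was -0.01 with the trend with GC content and length removed. Cytosolic ribosomal proteins (81 genes, median -0.06) and mitochondrial ribosomal proteins (78 genes, median -0.03) held 0 calls.

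Genes of the stress hormone axis did not pass the test. Of 16 genes of corticotropin-releasing hormone and corticosteroid signalling, 0 were called and 10 were negative. Nr3c1, the glucocorticoid receptor, had 109.4 ± 12.9 CPM in F1 and 86.7 ± 5.85 CPM in F2 (SD, n = 5 mice), a difference of -0.34 ± 0.09 (SE, adjusted p = 0.0605). Crh, the releasing hormone, differed by 0.35 ± 0.27 (adjusted p = 0.500), its receptor Crhr1 by 0.33 ± 0.18 (adjusted p = 0.319), the receptor chaperone Fkbp5 by 0.07 ± 0.12 (adjusted p = 0.791) and the oxytocin receptor Oxtr by -0.21 ± 0.25 (adjusted p = 0.677). Bdnf, a neurotrophin, differed by -0.05 ± 0.52 (adjusted p = 0.969), a spread that leaves a wide interval. Of 19 glucocorticoid-induced genes 0 were called, 14 were positive and the median was 0.22. Of 21 clock genes, Bhlhe41, a repressor in the clock's feedback loop, fell by 0.51 on the log2 scale (adjusted p = 0.0496) and none rose. That was 1 gene or 4.76% of the list, where 0.532% of all genes fell. Its groups overlapped, with 36.8 to 62.7 CPM in F1 and 32.4 to 44.5 CPM in F2. The call was kept in 1 of the 10 edgeR fits without 1 mouse.

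Vascular markers rose in 1 of 42 cases over the endothelial and the mural, fibroblast and meningeal lists, a share near the 1.47% of all genes that rose. Cldn5, a tight junction protein of the blood-brain barrier, rose from 11.3 to 14.1 CPM in F1 to 17.6 to 23.6 CPM in F2, by 0.60 ± 0.14 (SE, adjusted p = 0.0415), or by 0.32 (adjusted p = 0.335) with the offset, and 16 of 20 endothelial markers were positive with a median of 0.23. The 22 mural, fibroblast and meningeal markers held 0 calls, 18 positive differences and a median of 0.45, with 325 to 423 summed CPM in F1 and 392.1 to 816 CPM in F2, highest in replicate 18. Pdgfrb, the pericyte receptor, differed by 0.43 ± 0.12 (adjusted p = 0.0596), and Col1a1, a fibroblast collagen, by 1.04 ± 0.31 (adjusted p = 0.0723). The part of vessel and meningeal tissue in the punch was not tested as a source of other differences.

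Neuronal and other cell lists held 0 calls. Striatal medium spiny markers had 16 of 18 negative differences and a median of -0.24, with libraries that ranged widely in both groups. In the stress lineage the striatal list had a median of 0.39 and 18 of 18 positive differences, with 0 called. The part of striatal tissue in the differences between lineages was not tested. Pallial excitatory markers had a median of -0.04, central amygdala markers 0.01, interneurons 0.02, astrocytes -0.00 and microglia 0.06. Thalamic markers had a median of 0.11, the 6 measured blood markers 0.14, the 7 measured choroid plexus markers -0.07 and the 4 measured hypothalamic markers 0.01, with medians of both signs for neighbouring regions. Synaptic vesicle genes (30, median -0.00), glutamate receptors and transporters (32, median -0.01), GABA genes (24, median -0.17) and neuropeptides and granins (28, median -0.13) held 0 calls, as did potassium channels (79, median -0.01), clustered protocadherins (57, median -0.06), interferon-induced genes (26, median -0.09), sterol synthesis genes (23, median -0.10) and 4 sex-linked genes (median 0.07).

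**Figure D3:**
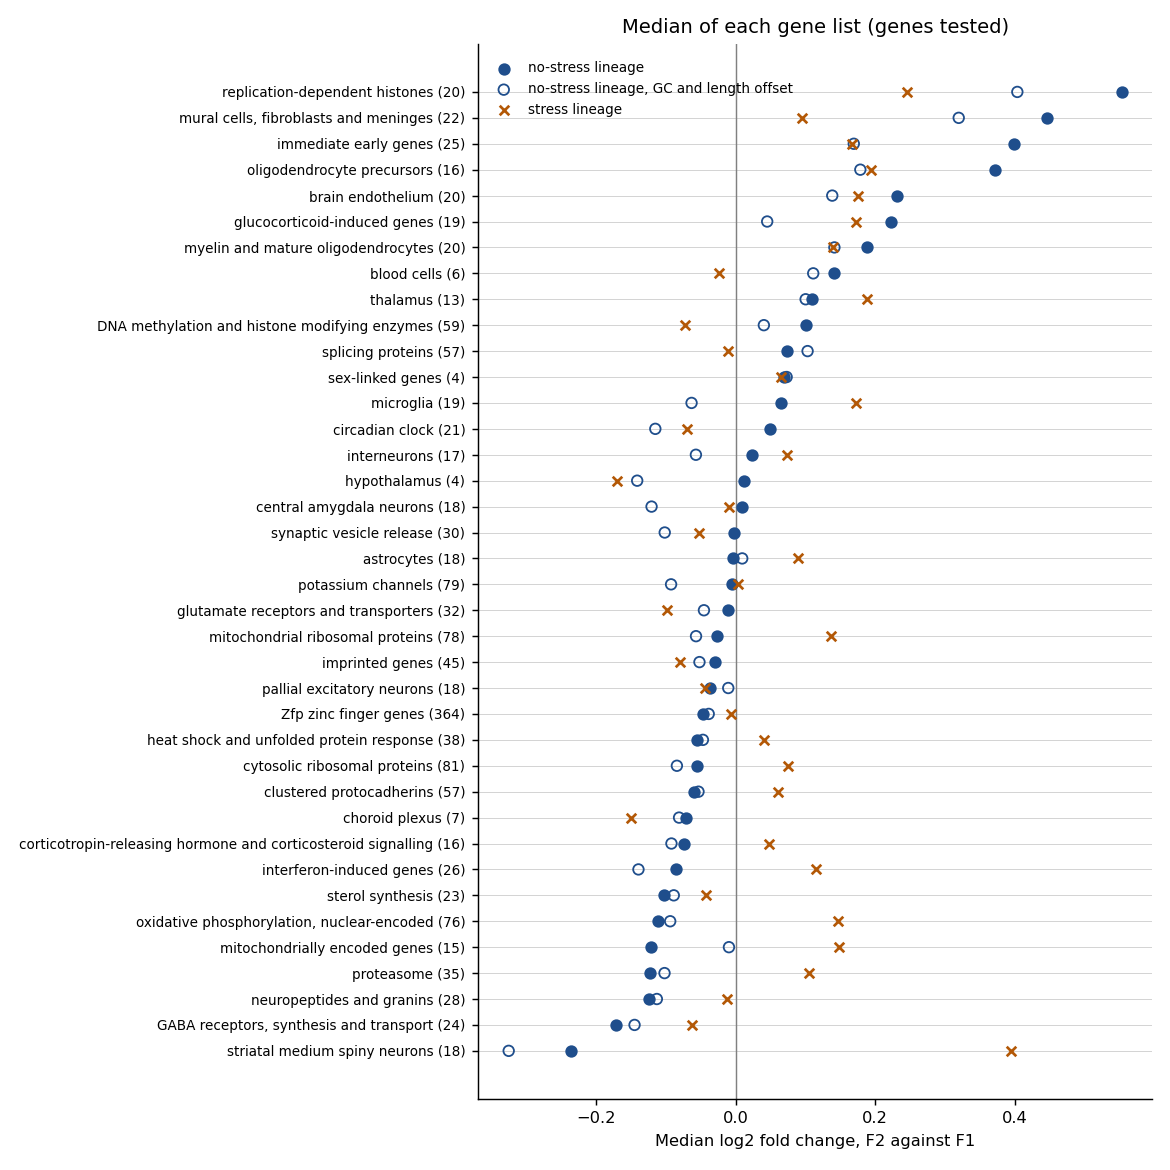
Median log2 difference of F2 against F1 for each of the 38 gene lists, with the number of genes tested in brackets, in the no-stress lineage (filled points), in the no-stress lineage with the trend with GC content and length removed (open points) and in the stress lineage (crosses). Replication-dependent histones, mural cells, immediate early genes and oligodendrocyte precursors had the highest medians in the no-stress lineage, and 18 of 38 lists had a median of opposite sign in the stress lineage.

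The genes that rose and fell also differed in base composition. The median GC content of the longest transcript was 57.5% in the 246 higher genes, 42.3% in the 89 lower genes and 49.3% in the 16392 genes not called. Across all genes, Spearman's rho between the log2 difference and GC content was 0.48, a description over genes that are not independent of each other. In 10 bins of GC content the median difference went from -0.13 in the lowest bin to 0.30 in the highest, which held 117 higher and 0 lower genes, while the lowest held 0 higher and 33 lower genes. In the stress lineage the bin medians went the other way, from 0.04 to -0.09, and rho was -0.20. Spearman's rho with transcript length was 0.02.

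**Figure D4:**
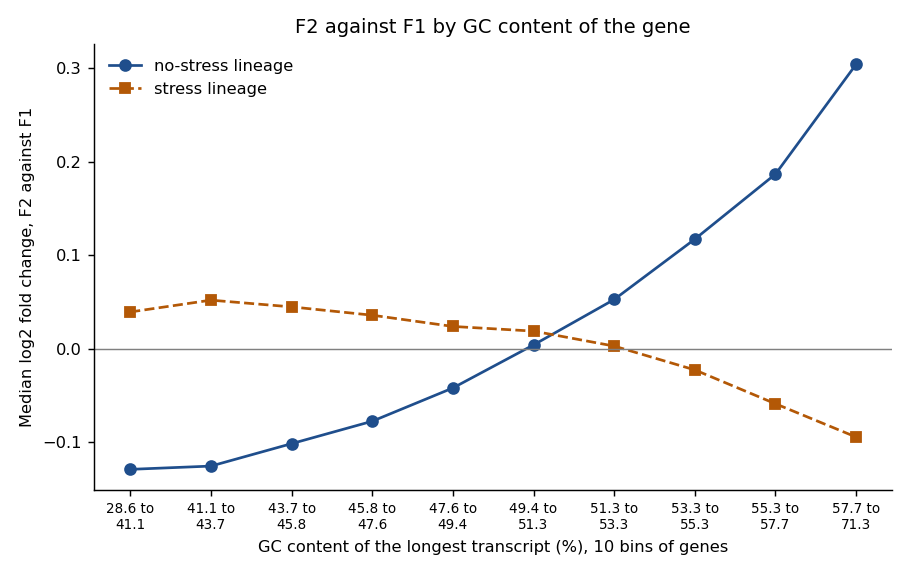
Median log2 difference of F2 against F1 in 10 bins of genes by GC content, for the no-stress lineage (circles) and the stress lineage (squares). The no-stress medians rise from -0.13 to 0.30 and the stress medians fall from 0.04 to -0.09 between the lowest and the highest bin.

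A GC gap was computed for each library as its median log2 deviation in the highest GC bin minus that in the lowest. It was -0.018, -0.124, -0.360, -0.0065 and -0.529 in F1 replicates 6 to 10 and 0.473, 0.311, 0.354, 0.132 and -0.229 in F2 replicates 16 to 20. F2 replicate 20 lay within the F1 range and the other 4 F2 mice lay above it. The mean was -0.207 ± 0.229 in F1 and 0.208 ± 0.273 in F2 (SD, n = 5 mice, exact two-sided permutation test, p = 0.0397, 0.159 adjusted over 4 library measures, the smallest possible p being 0.00794). The gap ran with the generation, and the part it had in single gene differences was not tested beyond the fit that removes each library's trend. That fit called 0 genes (edgeR, smallest adjusted p = 0.0540, 2265 genes at an unadjusted p below 0.05). Of 332 called genes with a value in it, 331 had the same sign, and the median absolute difference fell to 0.29 from 0.50.

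**Figure D5:**
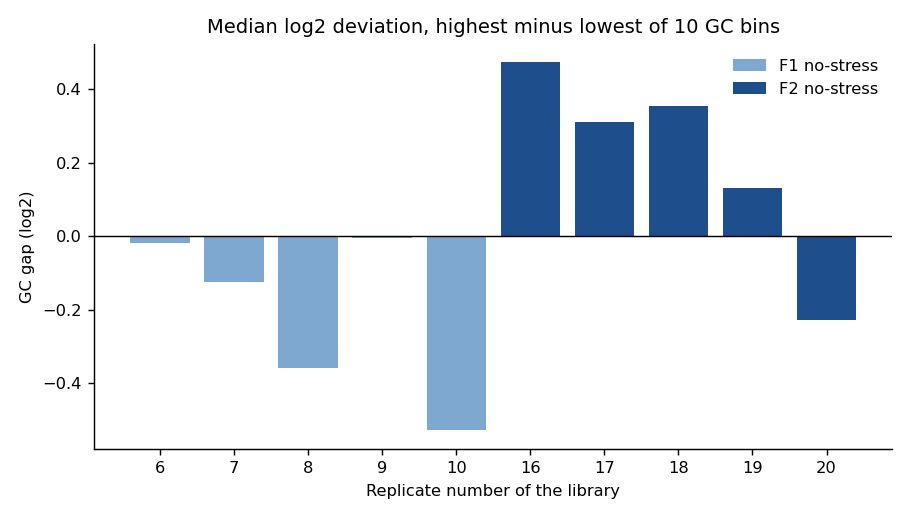
GC gap of each library of the no-stress lineage (log2), F1 replicates 6 to 10 and F2 replicates 16 to 20. The bars of 4 F2 mice lie above 0, from 0.132 to 0.473, and F2 replicate 20 lies at -0.229, within the F1 range of -0.529 to -0.0065.

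The 3 other library measures had larger p-values, and none of the 4 passed once adjusted over them. The mitochondrial share of counts was 8.49 ± 0.79% in F1 and 7.97 ± 0.87% in F2 (exact permutation test, p = 0.357), the length gap -0.022 ± 0.128 and 0.012 ± 0.206 (exact permutation test, p = 0.786), and the number of genes with at least 1 count 21785 ± 170 and 22124 ± 449 (exact permutation test, p = 0.151).

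The generation differences of the 2 lineages were compared directly. In 421 genes (2.52%) the F2 minus F1 difference was higher (281 genes, 1.68%) or lower (140 genes, 0.837%) in the no-stress lineage than in the stress lineage. Recql4, a DNA helicase, had a difference of 0.93 in the no-stress lineage and -1.02 in the stress lineage, Wdr90 0.68 and -0.56, Plec, the cytoskeletal linker plectin, 0.68 and -0.49, Inha 0.95 and -0.27, and Gtpbp2 0.55 and -0.25. In the other direction, Nkain2, a protein that interacts with the sodium pump, had -0.33 and 0.32, Gtf3c6, of transcription factor IIIC, -0.28 and 0.36, Snrpd3 -0.30 and 0.23, Timm29 -0.29 and 0.15, and Tmem267 -0.65 and 0.52. All 10 had adjusted p = 0.0309 for the difference between lineages. Recql4 was low, with means of 0.96 CPM in F1 and 1.84 CPM in F2 of the no-stress lineage. Mfsd3, on the opposite strand where it overlaps Recql4, held 1000 counts over the 20 libraries against 340 of Recql4. Rhot2, on the same strand where it overlaps Wdr90, held 18239 against 3961 of Wdr90. How the counting divided reads of these pairs is not stated in the labels. Gtf3c6 was not called within the no-stress lineage (adjusted p = 0.0833). No gene was called for this difference when the trend with GC content and length was removed (edgeR, 2490 genes at an unadjusted p below 0.05).

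In the stress lineage the 246 genes that rose here had a median difference of -0.19, with 31 positive, and the 89 genes that fell had a median of 0.08, with 65 positive. The 16392 other genes had a median of 0.01 there, with 8626 positive. Across all genes Pearson's r between the 2 generation differences was -0.25, and -0.18 with the trend with GC content and length removed, given as a description over genes. The 2 contrasts share no library, though the 4 groups share the estimate of the spread. Npas4, with 1.59 in the no-stress and 0.31 in the stress lineage, was not called for the difference between them (adjusted p = 0.0638), and Ier2, with 1.42 and 0.12, was not either (adjusted p = 0.0596), whereas Junb, with 1.13 and -0.20, was (adjusted p = 0.0379).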

How the data were processed

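Amygdala punches of 20 mice were sequenced as poly-A selected, stranded libraries. The authors deposited 1 table of whole-number counts per gene, and alignment used STAR 2.5.3a on GRCm38, per the submitters' processing notes. Which tool, annotation and strand setting produced the counts is not given in the sources used here. Totals of the deposited counts were nearly equal (13654890 to 13714805 over the 20 libraries), by a step that is not described, so they give no depth. No 2 libraries of a group agreed within sampling noise (lowest chi-square 9.85 per gene over 20 pairs).

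Genes were tested with edgeR 4.0.16 (R 4.3.3), TMM factors, filterByExpr and the quasi-likelihood test in 1 fit of the 4 groups with all 20 libraries, with Benjamini-Hochberg adjustment over all genes tested and a threshold of 0.05. The contrast was F2 minus F1 of the no-stress lineage. The script was tested on simulated counts. GC content and length were taken from the longest transcript of GENCODE vM21, for 16692 of the genes tested, and promoter windows from RefSeq (GRCm38.p6). P-values refer to the spread between mice of a group, whose litters the labels do not give. Named genes were, in each direction, the 12 called genes of smallest p with at least 1 CPM and a named symbol, up to 3 genes per list, 6 stress and neuropeptide genes, and 5 genes a direction for the difference between lineages. The comparison and the 38 lists were chosen with earlier results of these data known. Alternatives of tool or scaling were DESeq2 1.42.0, limma 3.58.1 (voom), RLE factors, library totals and no filter on low counts. Other fits added marker scores centred within each group, 1 surrogate variable (sva 3.50.0) or an offset for GC content and length. Further fits used only the 10 no-stress libraries or left out 1 of these libraries at a time. Library measures were compared by exact permutation over 252 arrangements.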

Additional observations from a re-analysis of the deposited data

Results flagged for a closer look

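Among the genes named, 6 had a single mouse far from the other 4 of its group. Emx1, a cortical transcription factor, measured 0.510 CPM in F1 replicate 7 against 1.84 to 2.34 CPM in the other F1 mice. The clotting factor gene F5, listed as a choroid plexus marker, measured 0.447 CPM in F1 replicate 9, and the ubiquitin ligase gene Ube3a measured 115.0 CPM in that mouse. The neuropeptide gene Gal measured 2.31 CPM in F2 replicate 19 against 0.0757 to 0.361 CPM in the other F2 mice. The ribosomal gene Rpl5 measured 144.3 CPM in F2 replicate 17. The Y-linked gene Kdm5d measured 57.6 CPM in F2 replicate 20 against 28.4 to 31.7 CPM in the other F2 mice. Chance gives about 1 such group in 20, and 144 genes were named by rule, so the 6 are not an excess.

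The generation difference was not the same in the 2 lineages, by edgeR's test of the difference itself, for 36 of the 144 genes named by rule. Over all genes tested the share was 2.52%. Of the 36, 10 were named for that test and the others by a small p within the no-stress lineage. That contrast is part of the difference tested, so the choice favours a call and the number cannot be read as an excess. The values are no-stress minus stress on the log2 scale. Among transcription and chromatin genes it was 1.34 for Junb, 0.87 for Hdac10, 0.86 for Pagr1a, 0.83 for Zfp335, 0.74 for Kdm6b, 0.71 for Hdac5, 0.53 for Fbxl19 and -0.65 for Gtf3c6. Among synaptic and secreted proteins it was 1.22 for Inha, 1.03 for the scaffold Shank1, 0.85 for the neuropeptide precursor Vgf, 0.52 for the vesicle priming factor Unc13a and -0.65 for Nkain2. Among mitochondrial and ribosomal genes it was -0.35 for Hspa9, -0.40 for Rpl5, -0.45 for Timm29, -0.49 for Ndufv2, -0.53 for Rps24 and -0.66 for Mrps18c. For the proteasome genes Psma2 and Psma6 it was -0.53 and -0.47, and for the splicing gene Snrpd3 -0.53. The other higher values were 1.95 for Recql4, 1.23 for Wdr90, 1.17 for Plec, 1.01 for Zfr2, 0.89 for Obsl1, 0.80 for Gtpbp2, 0.59 for Ripor1 and 0.43 for Rfng. The other lower values were -1.18 for Tmem267, -0.51 for Pdcd10, -0.49 for Ndfip1, -0.49 for Lrrc40, -0.48 for Itfg1 and -0.36 for Emc7.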

How the results depend on the processing

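The count of 335 genes was 322 with RLE factors and 300 with limma-voom, and moved further with 1 surrogate variable (638), DESeq2 (1028), library totals (208), no filter on low counts (61) and striatal and pallial scores as covariates (1549). It was 0 with the GC and length offset (2265 genes at an unadjusted p below 0.05) and 0 with only the 10 no-stress libraries (edgeR, 3105 genes, smallest adjusted p = 0.0797); no other tool was run in those settings. Leaving out 1 mouse gave 0 to 725. The 421 genes that differed between lineages became 1240 with DESeq2, 0 with the offset, 100 with no filter, 1843 with the scores and 0 to 855 without 1 mouse. The cause of these shifts was not tested. The fit without a filter held more genes (29671), and the part this had in its lower count was not tested either. The striatal and pallial scores were centred within each group, so those fits did not adjust group differences for striatal or pallial content. Of the 45 named genes that were called, 0 kept the call with the offset, 43 with DESeq2 and 41 with limma-voom. The GC gap was 0.335 to 0.525 without 1 mouse, with an unadjusted exact permutation p below 0.05 in 3 of 10. The length gap was -0.0439 to 0.0998.

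Of the called genes, 1 changed sign with the offset (Map7d1, 0.33 and -0.05, named after its values were seen). The named genes that changed sign were not called. Bdnf was 0.0022 with 1 surrogate variable, 0.078 with the offset and -0.36 to 0.28 without 1 mouse. Gal was -0.58 with 1 surrogate variable and -1.23 to 1.03 without 1 mouse, and Trh -0.037, -0.0041 with the offset and -0.054 to 0.25 without 1 mouse. With the offset Csnk1e was -0.0029, Emx1 -0.0091, Slc12a5 -0.11 and Slc32a1 -0.00066. Without 1 mouse Eif2s3y was -0.00022 to 0.34 and Prox1 -0.00029 to 0.21. No paired analysis was possible because each mouse had its own replicate number. With 5 mice a group and totals set equal before deposit, counting error of low genes such as Ier2 cannot be read from the depth.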

Other observations

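Of the 25 genes that differed at least 2-fold, 7 are described here, chosen after their values were seen and standing for no gene group. Col4a2, a chain of basement membrane collagen, measured 27.6 to 42.9 CPM in F1 and 47.9 to 102.6 CPM in F2, without overlap, and rose by 1.05 ± 0.21 (SE, adjusted p = 0.0265). In the stress lineage its means were 45.5 CPM in F1 and 37.8 CPM in F2. Col5a1, a fibrillar collagen, rose by 1.26 ± 0.32 (adjusted p = 0.0491) and Col20a1 by 1.23 ± 0.30 (adjusted p = 0.0430), the latter with groups that overlapped in F2 replicate 18.

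Dok3, an adaptor that dampens signalling in myeloid and B cells, rose by 1.31 ± 0.25 from 1.58 to 3.36 CPM in F1 to 3.77 to 7.86 CPM in F2, and Cfp, the complement regulator properdin, by 1.37 ± 0.27 from 1.82 to 3.36 CPM to 3.77 to 9.92 CPM. Neither overlapped between groups. Ankrd23, a muscle ankyrin repeat protein, rose by 1.62 ± 0.30, from a mean of 1.07 to 3.29 CPM. Its position overlaps that of Gm42417, a predicted gene on the same strand that is also among the 25, so their reads may be shared. Crocc, which builds the ciliary rootlet, rose by 1.09 ± 0.27, with 85.1 and 74.1 CPM in F2 replicates 16 and 17 and 31.2 CPM in F2 replicate 18, which lay within the F1 range of 19.5 to 31.8 CPM. The GC content of Crocc was 63.9%, of Col4a2 60.6% and of Dok3 59.1%, above the median of 49.3% in genes not called.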
